A study of Mus musculus with 5 samples.

Results

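The miR-181 family was examined in small RNA from extracellular vesicles (EVs), the membrane particles that cells shed, of murine mesenchymal stem cells. The members were the rows of the count table for 6 mature strands, namely the 4 guide strands mmu-miR-181a-5p, mmu-miR-181b-5p, mmu-miR-181c-5p and mmu-miR-181d-5p and the opposite strands mmu-miR-181a-1-3p and mmu-miR-181c-3p, out of 1966 rows in all. A count was found for 5 of the 6, and 4 passed the low-count filter of the test between groups. The table also has rows for 4 further strands of these hairpins, of which miR-181a-2-3p had counts and is described beside the members.

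The 3 freeze-dried libraries came from EVs that were frozen at -80 °C with 25 mM trehalose, dried overnight and rehydrated for 1 h. The 2 not freeze-dried libraries came from EVs without that step. All 5 share the source, cultured cells from C57BL/6-GFP transgenic mice kept for 48 h in serum-reduced medium, and the EV pellet from a spin at 100000 g. Nothing in the labels says that the replicates are separate cultures. The p-values therefore describe the spread between these 5 libraries, which may be technical. In bulk EV RNA, fewer vesicles that carry a miRNA and less of it per vesicle cannot be told apart.

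Total miRNA counts were 2914305, 2473178 and 192450 in freeze-dried replicates 1, 2 and 3, and 912080 and 131507 in not freeze-dried replicates 1 and 2. Freeze-dried replicate 3 and not freeze-dried replicate 2 are called shallow and the other 3 libraries deep. Of 13 miRNAs listed here as mesenchymal markers, 13 had counts, though how specific each is to such cells was not tested. They took 18.5% to 21.7% of the counts in freeze-dried and 25.4% to 27.4% in not freeze-dried libraries, led by miR-21a-5p and miR-143-3p. Of 4 leukocyte markers, miR-142a-3p and miR-142a-5p were at 0 in every library, and the list, led by miR-150-5p and miR-223-3p, took 0% to 0.00883% in freeze-dried against 0.0114% to 0.0278% in not freeze-dried libraries. These shares were not compared by a test. In the test of single miRNAs between groups, 0 of 13 tested mesenchymal and 0 of 2 tested leukocyte markers were called different. The leukocyte shares nearest each other rest on few counts. In freeze-dried replicate 3 miR-150-5p had 1 count and miR-223-3p 16, and in not freeze-dried replicate 2 they had 15 and 0. The part of these differences in share in the results on miR-181 was not tested.

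A miRNA hairpin is cut into a duplex of a 5p and a 3p strand. The strand loaded into an Argonaute protein, the guide, finds messenger RNAs mainly through its seed, bases 2 to 8, while the other strand is mostly degraded. The miR-181 guides share their seed and are best known from lymphocytes, where in mouse miR-181a lowers the threshold of T-cell receptor signalling by repressing phosphatases. In cells of the mesenchymal lineage miR-181a has been linked to osteoblast differentiation in mouse.

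The sequences below, from RefSeq on GRCm38.p6, show how alike the members are, since the values that follow depend on reads being told apart. Each runs 5′ to 3′ with the seed in capitals.
miR-181a-5p: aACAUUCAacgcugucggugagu
miR-181b-5p: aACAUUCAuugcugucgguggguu
miR-181c-5p: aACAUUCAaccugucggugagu
miR-181d-5p: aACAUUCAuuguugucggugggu
miR-181a-1-3p: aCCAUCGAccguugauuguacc
miR-181c-3p: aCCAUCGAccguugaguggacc
miR-181a-2-3p: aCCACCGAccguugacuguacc

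Counting positions from 1 at the 5′ end, miR-181a-5p and miR-181b-5p differ by A9U, C10U and A21G over 23 shared bases, all outside the seed, and miR-181b-5p is 1 base longer. miR-181b-5p and miR-181d-5p differ by C12U alone over 23 bases, so that 1 changed base turns a read of one into the other. miR-181c-5p is miR-181a-5p with 1 base deleted at position 11. The seed ACAUUCA occurred in 4 of 1679 mature mouse miRNAs searched, the 4 guides of this family, and in 0 outside it. The seed CCAUCGA of miR-181a-1-3p is shared with miR-181c-3p alone, and U5C and U16C separate miR-181a-1-3p from miR-181a-2-3p.

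The hairpins form 3 pairs. On GRCm38 (GENCODE M21), Mir181a-1 at chr1:137966455-137966541 and Mir181b-1 at chr1:137966639-137966718, both on the plus strand, lie 97 bases apart in an intron of the non-coding gene Gm4258, and Mir181b-1 also overlaps an exon of the long non-coding gene A430106G13Rik. Mir181a-2 at chr2:38852735-38852810 and Mir181b-2 at chr2:38853830-38853918 lie 1019 bases apart, on the plus strand, within an intron of Nr6a1 but on the strand opposite to it, a gene for an orphan nuclear receptor. Mir181d at chr8:84178716-84178787 and Mir181c at chr8:84178873-84178961, on the minus strand, lie 85 bases apart in an intron of Nanos3 on the same strand. The 2 hairpins of miR-181a give the same 5p strand, so only their 3p strands tell the locus, as the hairpins show with both strands in capitals.
Mir181a-1: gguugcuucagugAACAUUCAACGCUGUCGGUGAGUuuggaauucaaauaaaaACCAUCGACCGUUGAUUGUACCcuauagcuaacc
Mir181a-2: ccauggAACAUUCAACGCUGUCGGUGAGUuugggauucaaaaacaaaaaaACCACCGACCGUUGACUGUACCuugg

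The family was carried almost wholly by miR-181b-5p and miR-181a-5p, which stood among the upper ranks of the detected miRNAs in each library. Levels are given in CPM, counts scaled to a common library size by TMM, a normalization on the bulk of the miRNAs. The mature strands are 22 to 24 bases long, so levels of different strands are compared without a length correction. miR-181b-5p ranked between 55 and 67, and miR-181a-5p between 52 and 84, among 315 to 361 detected miRNAs per library. The 4 guides together took 0.401%, 0.579% and 0.290% of the counts in freeze-dried replicates 1, 2 and 3, and 0.574% and 0.513% in not freeze-dried replicates 1 and 2. The groups overlapped, with 0.423% ± 0.146 (SD, n = 3) against 0.544% ± 0.043 (SD, n = 2; exact two-sided permutation p = 0.60, smallest possible 0.2).

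Over all 5 libraries the mean levels ran from miR-181b-5p (2400 CPM) and miR-181a-5p (2218 CPM) to miR-181a-2-3p (167 CPM), miR-181d-5p (34.4 CPM), miR-181a-1-3p (26.2 CPM) and miR-181c-5p (7.67 CPM), with miR-181c-3p at 0. The first 2 had no constant order over the 5 libraries. miR-181b-5p was the higher in the 3 freeze-dried libraries and miR-181a-5p in the 2 not freeze-dried ones, a balance described below. Both lay above miR-181a-2-3p in 5 of 5 libraries. miR-181a-2-3p lay above miR-181d-5p in 5 of 5 too, but narrowly in freeze-dried replicate 1. There the Poisson intervals of 73.2 to 95.2 CPM and 64.1 to 84.8 CPM overlapped. The counts of miR-181d-5p and miR-181a-1-3p had no constant order, with each the higher in 2 libraries.

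**Figure D1:**
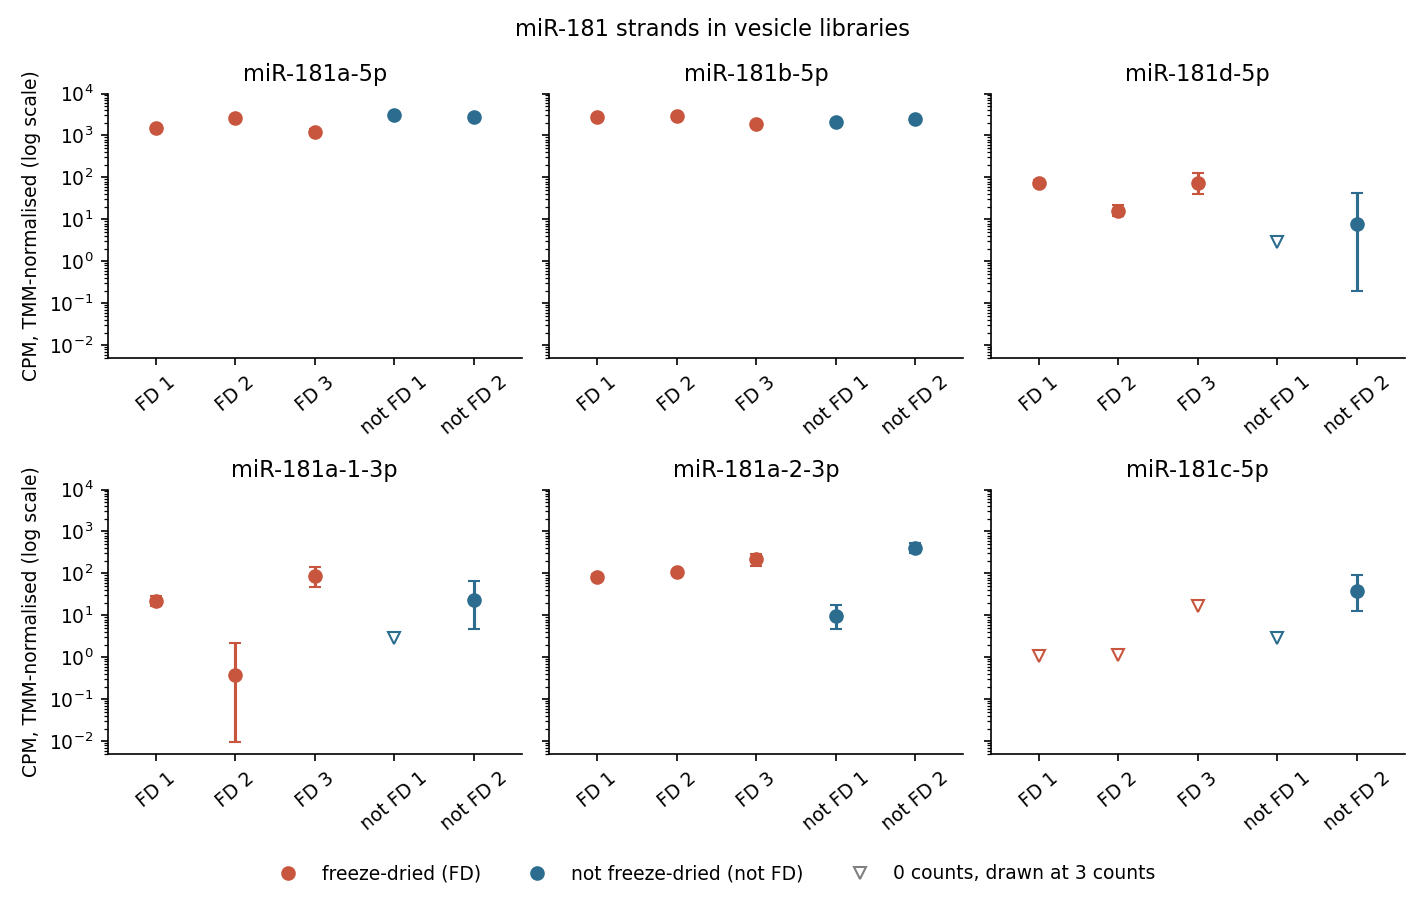
TMM-normalised CPM on a log axis for 5 members and miR-181a-2-3p in each library, freeze-dried (FD) left of not freeze-dried (not FD). Bars are 95% exact Poisson intervals and open triangles mark 0 counts at the level of 3 counts; miR-181c-3p, at 0 throughout, is not drawn. miR-181a-5p and miR-181b-5p lie between 1219 and 3008 CPM, far above the other strands.

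The comparison of the groups asked whether freeze-drying changes the miRNA content of the EVs. Trehalose, freezing, drying and rehydration came together in the freeze-dried group and cannot be told apart. In edgeR's quasi-likelihood test none of the 4 tested members passed an adjusted p of 0.05. The lowest adjusted p among them was 0.976, as it was over all 327 tested miRNAs, of which 0 were called higher (0%) and 0 lower (0%). Before adjustment, 9 miRNAs in edgeR, 16 in DESeq2 and 15 in limma-voom had a p under 0.05, 0 of the 4 members being among the 9, and DESeq2 and limma-voom also called 0. The fitted level was higher in freeze-dried EVs for 3 tested members and lower for 1 (median log2 fold change 0.94), as it was higher for 167 and lower for 160 of all tested miRNAs (median 0.02). For 2 of the 4 members every freeze-dried value lay on one side of both not freeze-dried values, as it did for 17.4% of all tested miRNAs in either direction. The member median lies between the values of miR-181b-5p and miR-181a-1-3p, and miR-181d-5p passed the filter only through the freeze-dried libraries, so these counts are no measure of a shared shift.

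miR-181a-5p, the guide made by both miR-181a hairpins, had 4089, 6847 and 214 counts in freeze-dried replicates 1, 2 and 3, and 3065 and 354 in not freeze-dried replicates 1 and 2. On the CPM scale these are 1488, 2660 and 1219 in freeze-dried and 3008 and 2714 in not freeze-dried libraries. Every freeze-dried library lay below both not freeze-dried ones, but freeze-dried replicate 2, with a counting interval of 2597 to 2724 CPM, came close to not freeze-dried replicate 2. Groups without overlap in this direction were found for 8.56% of all tested miRNAs. The means were 1789 ± 766 CPM (SD, n = 3) against 2861 ± 208 CPM (SD, n = 2). On the log2 scale edgeR put the change at -0.68 (SE 0.40, 95% interval -1.58 to 0.23, adjusted p = 0.976). The value was lower in both depth classes, 2074 against 3008 CPM in deep and 1219 against 2714 CPM in shallow libraries. Without freeze-dried replicate 2 it was -1.09, and without replicate 3 it was -0.41.

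miR-181b-5p, the guide of the neighbouring hairpins, known in endothelial cells for dampening NF-kB signalling, had 7389, 7420 and 331 counts in freeze-dried libraries and 2172 and 315 in not freeze-dried libraries. That is 2689, 2883 and 1885 CPM in freeze-dried and 2132 and 2415 CPM in not freeze-dried libraries, so both not freeze-dried values fell within the freeze-dried range. Its freeze-dried mean was 2485 ± 529 CPM (SD, n = 3), against a not freeze-dried mean of 2273 ± 200 CPM (SD, n = 2). The log2 fold change was 0.13 (SE 0.35, edgeR adjusted p = 0.976), and its 95% interval of -0.65 to 0.91 lay within 2-fold in either direction. The direction differed by depth, with 2786 against 2132 CPM in deep and 1885 against 2415 CPM in shallow libraries.

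The balance of these guides within a library needs no scaling between libraries. miR-181b-5p made up 64.4% (exact Clopper-Pearson 95% interval 63.5 to 65.3), 52.0% (51.2 to 52.8) and 60.7% (56.5 to 64.9) of the summed miR-181a-5p and miR-181b-5p counts in freeze-dried replicates 1, 2 and 3. In not freeze-dried replicates 1 and 2 it made up 41.5% (40.1 to 42.8) and 47.1% (43.2 to 50.9). Thus miR-181b-5p was the more frequent guide in all 3 freeze-dried libraries and miR-181a-5p in both not freeze-dried ones, though the interval of the shallow replicate 2 takes in 50%. The log2 ratio of miR-181b-5p to miR-181a-5p, with 0.5 added to each count, averaged 0.53 ± 0.38 (SD, n = 3) against -0.33 ± 0.23 (SD, n = 2). The difference of 0.86 had an exact two-sided permutation p of 0.20, the smallest that 3 libraries against 2 allow, so the design cannot take it past 0.05. The difference was 0.98 among deep and 0.80 among shallow libraries, and 0.70 to 1.07 with any 1 library left out. Every freeze-dried ratio lay above both not freeze-dried ones, so the direction in these subsets was fixed in advance. Only the sizes add to the comparison. All intervals and floors here take in counting error alone, as PCR reads lacking molecular identifiers do not each stand for 1 molecule.

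**Figure D2:**
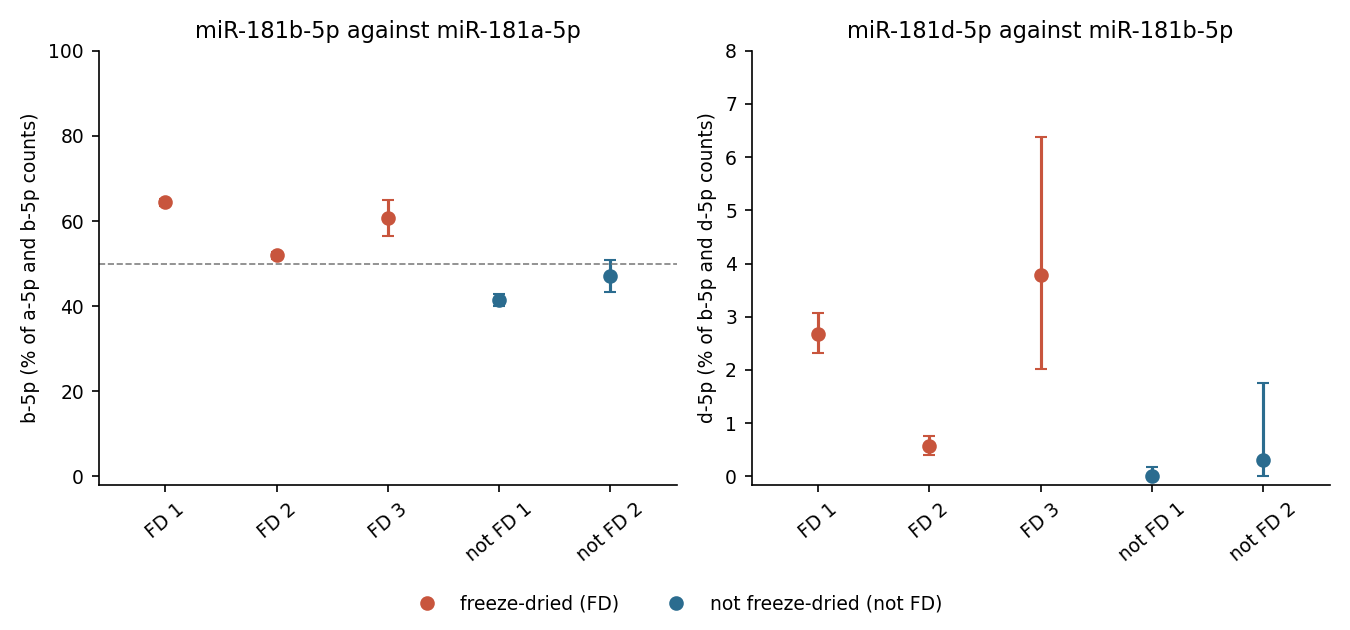
Left, miR-181b-5p as a percentage of the summed miR-181a-5p and miR-181b-5p counts per library, with a dashed line at 50%; right, miR-181d-5p as a percentage of the summed miR-181b-5p and miR-181d-5p counts. Points carry exact 95% intervals; the freeze-dried (FD) libraries span 52.0% to 64.4% on the left and 0.563% to 3.78% on the right, the not freeze-dried ones 41.5% to 47.1% and 0% to 0.316%.

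miR-181d-5p, the guide of the chromosome 8 pair, known in human glioma for repressing the repair enzyme MGMT, was scarce. It had 203, 42 and 13 counts in freeze-dried libraries and 0 and 1 in not freeze-dried libraries, or 73.9, 16.3 and 74.0 CPM against 0 and 7.67 CPM. At the depth of the shallowest library these would be 9.16, 2.23 and 8.88 counts in freeze-dried libraries. The groups did not overlap, which held in this direction for 8.87% of all tested miRNAs. As the strand passed the filter only through the freeze-dried libraries, that direction was favoured in advance. The comparison with this share therefore carries no weight. The 0 in not freeze-dried replicate 1, a library of 912080 counts, allows up to 2.94 CPM, while the single count of replicate 2 has a Poisson interval of 0.194 to 42.7 CPM that takes in freeze-dried replicate 2.

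The edgeR estimate for miR-181d-5p on the log2 scale was 4.22 (SE 3.21, 95% interval -2.96 to 11.40, adjusted p = 0.976), a fitted value that rests on a group near 0 and is no bound. The means were 54.7 ± 33.3 CPM in freeze-dried (SD, n = 3) and 3.83 ± 5.42 CPM in not freeze-dried libraries (SD, n = 2). Freeze-dried replicate 1 held 203 of the 258 freeze-dried counts, and without it the strand did not pass the filter. Relative to its near-copy miR-181b-5p, it made up 2.67%, 0.563% and 3.78% of the summed counts of the pair in freeze-dried libraries. In not freeze-dried replicate 1 it made up 0% (0 of 2172, where the floor of 3 counts is 0.138% and the exact 95% interval reaches 0.170%). In not freeze-dried replicate 2 it made up 0.316% (1 of 316, below the floor of 0.949%). The exact 95% interval of that share, 0.00801 to 1.75%, takes in freeze-dried replicate 2. Freeze-dried replicate 2 lay well below the other 2 of its group. How reads with 1 mismatch were assigned is not given in the sources used here, and its part in these counts was not tested.

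miR-181c-5p, which in rat heart has been found in mitochondria, had 5 counts in not freeze-dried replicate 2 (38.3 CPM, Poisson interval 12.4 to 89.4) and 0 in the other 4 libraries. The 0 counts allow up to 1.09, 1.17 and 17.1 CPM in freeze-dried replicates 1, 2 and 3 and up to 2.94 CPM in not freeze-dried replicate 1. It did not pass the filter and no fold is given, as its counts come from 1 library of 5. Its opposite strand miR-181c-3p had 0 counts throughout, which allows up to 1.09 to 17.1 CPM in freeze-dried and 2.94 to 23.0 CPM in not freeze-dried libraries. miR-181b-1-3p, miR-181b-2-3p and miR-181d-3p were also at 0 in every library, and the same limits apply.

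The 3p strands of miR-181a came mostly from the chromosome 2 hairpin. miR-181a-2-3p had 230, 283 and 38 counts in freeze-dried and 10 and 54 in not freeze-dried libraries, and miR-181a-1-3p of chromosome 1 had 61, 1 and 15 against 0 and 3. The chromosome 2 strand thus made up 79.0%, 99.6% and 71.7% of the counts of both in freeze-dried libraries, and 100% (exact interval 69.2 to 100) and 94.7% in not freeze-dried libraries. The ranges overlapped, and in every library miR-181a-2-3p was the more frequent of the 2 strands.

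miR-181a-1-3p varied widely within the groups, at 22.2, 0.388 and 85.4 CPM in freeze-dried libraries and 0 and 23.0 CPM in not freeze-dried libraries. Freeze-dried replicate 2, with 1 count in 2473178, stood far below the other 2 of its group. The log2 fold change was 1.74 (SE 3.16, 95% interval -5.33 to 8.81, edgeR adjusted p = 0.976). Relative to the guide miR-181a-5p, its log2 ratio averaged -7.33 ± 4.33 (SD, n = 3) against -9.62 ± 4.19 (SD, n = 2), a difference of 2.29 within the spread (exact two-sided permutation p = 0.40, smallest possible 0.2). The difference turned to -0.67 without not freeze-dried replicate 1, whose 0 is set by the added 0.5.

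miR-181a-2-3p stood at 83.7, 109.9 and 216 CPM in freeze-dried libraries and at 9.81 and 414 CPM in not freeze-dried libraries. The 2 not freeze-dried libraries, which enclose the freeze-dried ones, were 42.2-fold apart, and the 2 shallow libraries were the highest of the 5. Its log2 fold change of -0.62 (SE 1.49, 95% interval -3.96 to 2.71, edgeR adjusted p = 0.976) has no stable direction and became 3.73 without not freeze-dried replicate 2. As a share of its own counts and those of the guide miR-181a-5p it made up 5.33%, 3.97% and 15.1% in freeze-dried libraries against 0.325% and 13.2% in not freeze-dried libraries. Among deep libraries this was 5.33% (interval 4.67 to 6.04) and 3.97% (3.53 to 4.45) in freeze-dried against 0.325% (0.156 to 0.597) in not freeze-dried EVs. Among shallow libraries it was 15.1% (10.9 to 20.1) against 13.2% (10.1 to 16.9), so there the intervals overlap.

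**Figure D3:**
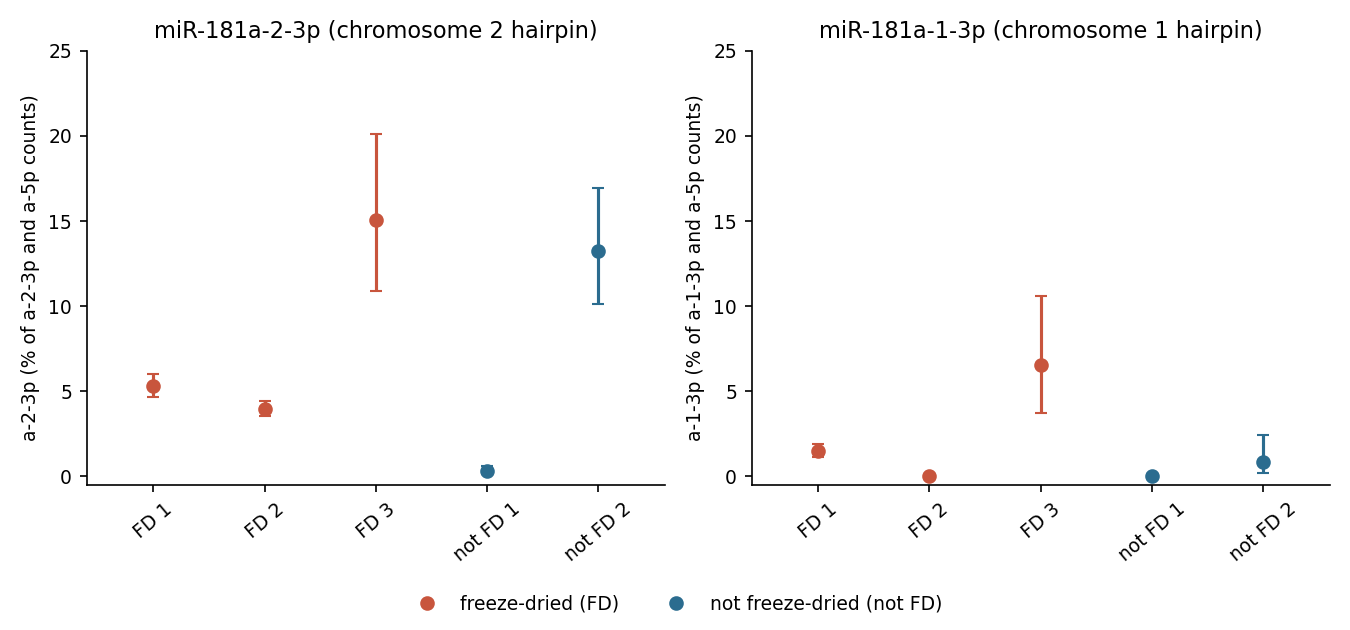
Each 3p strand of miR-181a as a percentage of its own counts plus those of miR-181a-5p, per library, with exact 95% intervals; freeze-dried (FD) left of not freeze-dried (not FD). miR-181a-2-3p is at 15.1% and 13.2% in the shallow libraries FD 3 and not FD 2, and at 0.325% to 5.33% in the other 3.

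**Figure D4:**
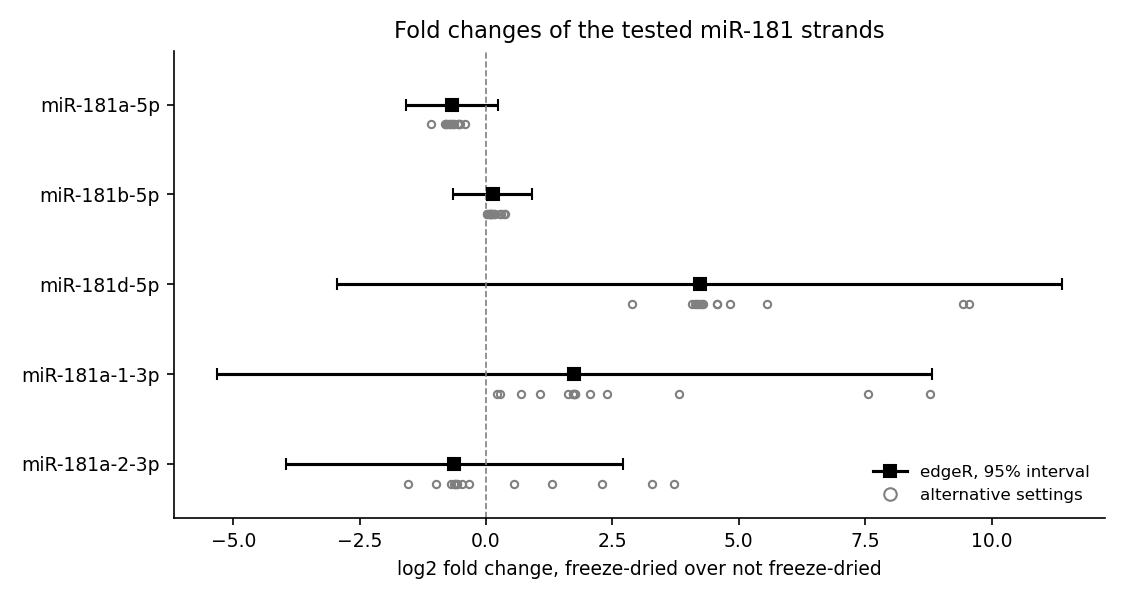
Log2 fold changes of the tested strands, freeze-dried over not freeze-dried, from edgeR with 95% intervals (squares), and under the alternative settings (open circles). All 5 intervals include 0; those of miR-181a-5p and miR-181b-5p are narrow, and the alternative values of miR-181a-2-3p fall on both sides of 0.

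The summed miR-181 guides were also set against those of other families with several near-identical guides. The log2 ratio of the summed miR-181 guides to the miR-30 guides was -3.51 ± 0.19 in freeze-dried (SD, n = 3) and -3.05 ± 0.08 in not freeze-dried libraries (SD, n = 2). These groups did not overlap (exact two-sided permutation p = 0.20, adjusted over the 3 families 0.60). To the miR-26 guides the ratio was -1.62 ± 0.48 in freeze-dried and -1.25 ± 0.15 in not freeze-dried libraries (exact permutation p = 0.60, adjusted 0.90). To the miR-29 guides it was -0.66 ± 0.51 in freeze-dried and -0.59 ± 0.97 in not freeze-dried libraries (exact permutation p = 1, adjusted 1), and the groups overlapped for both of these families. The difference of -0.07 for miR-29 turned to 0.21 without freeze-dried replicate 1 and to 0.61 without not freeze-dried replicate 2.

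By its pattern over the 5 libraries, miR-181b-5p, the member with the highest mean level, was most like miR-30d-5p, miR-28a-3p, miR-30a-5p, miR-103-3p and miR-25-3p. The root mean square difference of their centred log2 CPM values was 0.13, 0.17, 0.20, 0.20 and 0.22. All 5 were abundant, with mean levels between 1398 and 25166 CPM. miR-181a-5p, its partner in both hairpin pairs, was at 0.50 and came 74th of 326, against a median of 1.26 over all tested miRNAs. The other tested strands of the family lay further off, with miR-181a-2-3p at position 189, miR-181d-5p at 230 and miR-181a-1-3p at 261. miR-181d-5p and miR-181a-1-3p had few or no counts in several libraries, which by itself widens such distances. The median also takes in miRNAs with low counts, so these positions are no measure of shared change within the family.

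Of 9 miRNAs associated with lymphocytes, the cells in which miR-181a is best known, 4 of them also leukocyte markers above, 7 were tested and 0 were called. Their fold changes were above 1 for 2 and below 1 for 5, with a median log2 fold change of -0.51 against 0.02 over all tested miRNAs. That median is the value of miR-223-3p (SE 2.81), which had 0 counts in replicate 2 of each group, so it is no measure of a lean of the list. The most abundant of the 9 were miR-92a-3p, from a miRNA cluster that mouse B-cell development needs, and miR-146a-5p, a miRNA induced by NF-kB. miR-92a-3p stood at 51861 ± 33403 CPM in freeze-dried (SD, n = 3) against 58707 ± 49916 CPM in not freeze-dried libraries (SD, n = 2). miR-146a-5p had 139, 78.9 and 9987 CPM in freeze-dried libraries and 402 and 11713 CPM in not freeze-dried libraries, with the 2 shallow libraries far above the other 3. These were also the highest libraries for miR-181a-2-3p and for miR-92a-3p. The latter had 90089 and 94003 CPM in the shallow libraries, against 23411 to 37180 CPM in the deep ones.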

How the data were processed

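Small RNA of 5 EV libraries was sequenced, and the authors deposited unnormalized counts for 1966 mature miRNAs. Per the submitters' processing notes the tools were bcl2fastq 2.20, FastQC, cutadapt 2.3, Bowtie 1.1.2 and featureCounts 1.5.0-p1 with the GRCm38 build. Neither the miRNA annotation nor the treatment of mismatches and multiple matches is stated there, so reads of near-identical members can have been exchanged. Per the labels' protocols libraries were size-selected between 126 and 169 bp.

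Groups came from the sample titles. The counts were fitted over the whole table in R 4.3.3 by the robust quasi-likelihood F test of edgeR 4.0.16, with TMM and filterByExpr, and p-values were adjusted by Benjamini-Hochberg over 327 miRNAs with a threshold of 0.05. The SE is the log2 fold change divided by the square root of F. Only the edgeR fit was tried on simulated counts, not the permutation test, the shares, DESeq2 or limma-voom. Ratios and shares were compared by exact permutation over libraries, with two-sided p as the smaller one-sided p doubled. Planned ratios of miR-181c-5p to miR-181a-5p and of miR-181c-3p to miR-181c-5p were not computed, as at least 4 of 5 libraries were at 0. A floor is 3 counts per library, and libraries of at least 500000 counts are called deep.

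Named are the 6 members, the other family strands with a count, the 5 miRNAs of nearest pattern and the 2 most abundant of each list. Outside that rule, the family strands and leukocyte markers at 0 in every library are named to account for them. Red cell, endothelial, epithelial and neural marker lists took at most 0.170%, 0.0403%, 0.0736% and 0.0200% of the counts of any library, with 0 members called. Their most abundant miRNAs were miR-486a-5p with miR-486b-5p, miR-126a-3p with miR-126a-5p, miR-203-3p with miR-200a-3p, and miR-9-5p with miR-124-3p. Members and lists were chosen with earlier results of these data known. The alternatives covered normalization, count filter, pseudocount, DESeq2 1.42.0, limma-voom (limma 3.58.1), each library left out, the replicate block, a depth term and the deep libraries by themselves.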

Additional observations from a re-analysis of the deposited data

How the results depend on the processing

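No alternative called any miR-181 strand. Over the alternatives the log2 fold change of miR-181a-5p stayed below 0 (-1.09 to -0.41) and that of miR-181b-5p above 0 (0.01 to 0.37), with adjusted p-values of at least 0.793. miR-181d-5p ranged from 2.88 to 9.56 in the 14 fits that tested it, as it did not pass the filter without freeze-dried replicate 1. The groups of miR-181a-5p and miR-181d-5p did not overlap, so leaving out libraries could hardly turn their direction. miR-181a-1-3p ranged from 0.23 to 8.79. miR-181a-2-3p turned to 2.29 with limma-voom, 0.55 with the replicate block, 1.31 with depth class as a term and 3.28 in the 3 deep libraries, with -1.54 to 3.73 when 1 library was left out. Raw library totals moved the median of all miRNAs by -0.11, and relative to that median miR-181a-5p stood at -0.69 and miR-181b-5p at 0.11, as with TMM.

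With 1 library left out, the difference in the guide share ranged from -0.198 to -0.0540 percentage points, the log2 ratio of miR-181b-5p to miR-181a-5p from 0.70 to 1.07, that of miR-181a-1-3p to miR-181a-5p from -0.67 to 5.25, and those to the miR-26, miR-29 and miR-30 guides from -0.64 to -0.22, -0.76 to 0.61 and -0.57 to -0.41. The ratio to miR-29 was 0.40 in the 3 deep libraries. The cause of these turns was not tested.

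The replicate numbers form 2 pairs with deviations correlated at 0.15 and -0.11, which does not show pairing. With the replicate block the log2 ratio of miR-181b-5p to miR-181a-5p was 0.82. Freeze-dried replicate 3 has no partner there, so this is the same value as without that library and no separate check. The edgeR fit with the block called 4 miRNAs lower, none of this family, against 0 without the block. That fit leaves few libraries to estimate the spread, so its calls carry little weight. Fits with 1 not freeze-dried library assume that it varies like the others. Depth limits miR-181d-5p, miR-181a-1-3p and miR-181c-5p, whose floor is 17.1 and 23.0 CPM in the shallow libraries.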
